A study of Homo sapiens with 12 samples.

Results

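The transcripts examined here encode the receptors of insulin and the insulin-like growth factors and the first proteins downstream of them, namely IGF1R, IGF2R, INSR, IRS1, IRS2, PIK3R1, GRB10, IGFBP1 and FOXO3. They were listed by name for their place in the pathway, by a rule that uses no measured value but was written with earlier results of these data known, and they are 9 of the 20046 protein-coding genes of GENCODE release 44. Clusters were taken as theirs when the cluster midpoint lay within the gene on its strand. The 12 libraries together held 97 such clusters among 102250, and overlapping clusters merged into 43 of 45174 sites. IRS2 held none in any library.

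The data are PAR-CLIP clusters from wildtype HepG2, a human liver cancer cell line. PAR-CLIP feeds cells 4-thiouridine, crosslinks the labelled RNA to bound protein with ultraviolet light, and sequences the fragments that come down with an antibody to that protein, here after digestion with RNase T1, which cuts after G. There were 2 libraries each for IGF2BP1, IGF2BP2, METTL1 and WDR4, and 4 for IGF2BP3, of which a pair carries the label bio2. The IGF2BPs are RNA-binding proteins, studied here for their recognition of m7G inside mRNA, and METTL1 with its partner WDR4 forms the methyltransferase that writes this mark. They are called readers (8 libraries) and writers (4 libraries) below. All libraries came from the same cell line and none from a knockdown or an untreated control. The labels do not say which replicates were separate cultures, so the p-values measure only the spread between these libraries. Libraries of the same protein count as separate units in these tests, although reader and writer are traits of 3 and 2 proteins.

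A library held 4581 to 15701 clusters, with IGF2BP2 replicate 1 the smallest and IGF2BP1 replicate 2 the largest. Read depth per cluster is unknown, so a transcript without a cluster may still be bound. RNA levels were not used here, and a scarce RNA and an unbound one cannot be told apart. Of 8 transcripts typical of hepatocyte-derived cells, APOB, SERPINA1 and FGB had an exonic cluster (in a UTR or coding sequence) in all 12 libraries, ALB in 10, AFP and TF in 5, APOA1 in 1 and TTR in 0. PTPRC, PECAM1, COL1A1 and GFAP, which mark blood, endothelial, fibroblast and glial cells, had 0.

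Insulin and the IGFs bind receptor tyrosine kinases, INSR and IGF1R, whose activation is passed on by docking proteins such as IRS1 and IRS2 to PI3-kinase and the kinase AKT, which in turn keeps FOXO transcription factors out of the nucleus. IGF2R has no such kinase and carries IGF2 to the lysosome, and IGFBP1, secreted by the liver, holds IGFs in the circulation. The IGF2BPs take their name from the mRNA of IGF2, and they are known to recognise CAU-containing elements in RNA.

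The sequences that carry the main sites are shown first. They are sense-strand stretches of hg38, 5′ to 3′, from the part of each merged site covered by most libraries, and capitals mark CAT followed by any base but G (the element known as CAUH in RNA, with T printed for U). The set holds the site found in most libraries in each gene with an exonic cluster, along with 3 further reproducible sites that contrast with it.
IGF1R 3′ UTR, chr15:98963884-98963913 (+): gtctccccaactccacaatatctctatcat
IGF1R 3′ UTR, chr15:98960802-98960831 (+): cctctcaacttctccctcacctccttccct
IGF2R 3′ UTR, chr6:160108625-160108654 (+): ttcctttcctttccttcctttttcctcttt
INSR coding exon 6, chr19:7170636-7170665 (-): aactcttcttccactataaccccaaactct
IRS1 intron 1, chr2:226793062-226793091 (-): aaacaaaaactctacaaaattctatcctta
PIK3R1 3′ UTR, chr5:68301515-68301544 (+): aaaaaatcaaaacaaaaaaaaactCATTta
IGFBP1 3′ UTR, chr7:45893198-45893227 (+): taactactttttatactcCATACATAactt
IGFBP1 coding exon 2, chr7:45890625-45890654 (+): ccttctgaagaggatCATTcCATCctttgg
IGFBP1 3′ UTR end, chr7:45893630-45893652 (+): aaaCATTtacaataaatattctg

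The IGF1R windows are rich in C and T, that of IGF2R is almost free of purines, and those of PIK3R1 and IRS1 are rich in A. In all, 72 of the 97 clusters were exonic. Of these, 54 lay in 3′ UTRs, 17 in coding sequence and 1 in a 5′ UTR, and the remaining 25 lay in introns. The coding and 5′ UTR clusters all came from reader libraries, while the 10 exonic writer clusters all lay in 3′ UTRs. Readers had 62 exonic clusters, and the coding share of exonic writer clusters over all genes was not set beside these counts. Whether writers differ from readers in this was therefore not tested. Counted by library, exonic clusters numbered 10 and 14 for IGF2BP1, 2 and 8 in IGF2BP2, 4 and 7 in IGF2BP3, 10 and 7 in IGF2BP3 bio2, 2 and 3 in METTL1, and 3 and 2 in WDR4. IGF1R supplied more of the reader clusters outside the bio2 pair than any other of these genes, and IGFBP1 most of those within it.

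**Figure D1:**
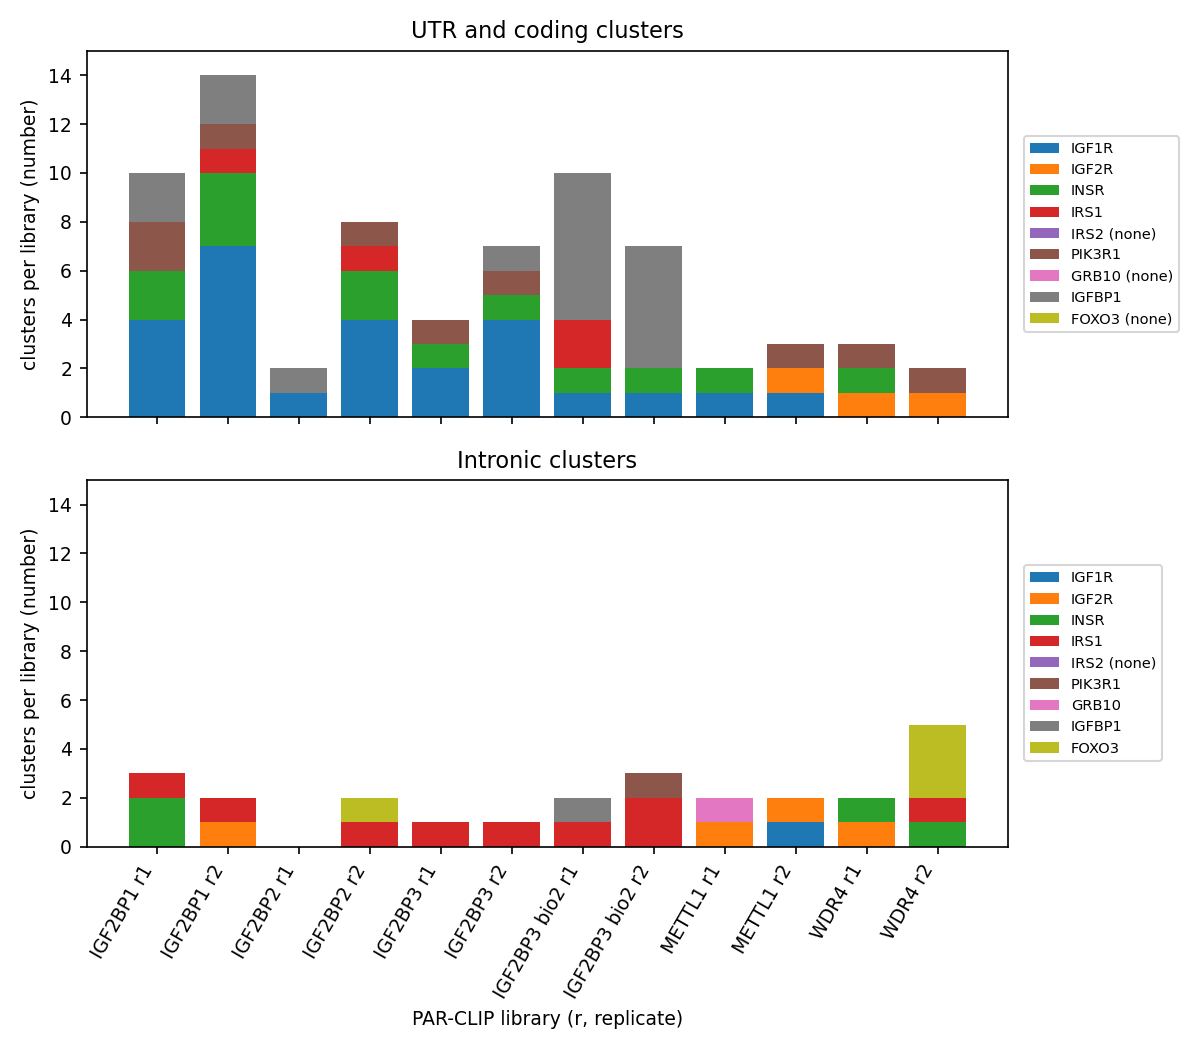
Number of clusters per library (y axis) in UTR and coding sequence (top) and in introns (bottom) for the 12 PAR-CLIP libraries (x axis), stacked by gene. IGF1R leads in both IGF2BP1 libraries with 4 and 7 exonic clusters, and IGFBP1 in the bio2 libraries with 6 and 5.

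Taking the receptors first, IGF1R, the receptor tyrosine kinase for IGF1 and IGF2, had the most clusters of the 9 genes. It held 26 exonic clusters in 10 libraries, all in a 3′ UTR of 7088 nt, at 3.67 clusters per kb. The IGF2BP1 libraries had 4 and 7, IGF2BP2 1 and 4, IGF2BP3 2 and 4, bio2 1 and 1, METTL1 1 and 1, and WDR4 0 and 0. All reader libraries were thus positive, and the WDR4 libraries were not.

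These clusters formed 8 merged sites along the IGF1R 3′ UTR. The most shared, 6434 nt after the stop codon and 616 nt before the transcript end, was found in 6 reader libraries, those of IGF2BP1, IGF2BP3 and bio2, and in no writer. A neighbour at 6405 nt was found in both IGF2BP1 libraries and IGF2BP2 replicate 1. The distal 3′ UTR of IGF1R was therefore covered in 7 of 8 reader libraries by sites with only a few bases between them.

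A second stretch lay near the middle. The site 3339 nt after the stop codon was found in 5 reader libraries and is reproducible for IGF2BP1 and IGF2BP3, meaning that at least 2 libraries of the protein held it. Sites at 2596, 2757 and 3750 nt were found in 2, 3 and 1 reader libraries. The writers reached only the proximal end, with METTL1 replicate 2 at 309 nt beside 4 reader libraries and METTL1 replicate 1 alone at 695 nt. The site at 309 nt is 88.4% pyrimidine, and the central 20 nt of its clusters occur 2 to 5 times in the genome, so its placement is less certain than that of the other IGF1R sites, which are single-copy.

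The site at 2596 nt, shared by IGF2BP1 and IGF2BP2 replicate 2, holds the letters CTACCTC, the complement of the seed of the let-7 microRNA family. This was seen on reading the sequence and was not sought beforehand. Both are shown for that reason, the site with CTACCTC in capitals and the microRNA, as RefSeq gives it, with its seed (bases 2 to 8).
IGF1R 3′ UTR, chr15:98960047-98960076 (+): ccccaaacatttatCTACCTCactcttatt
hsa-let-7a-5p: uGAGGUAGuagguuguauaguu
These letters occur on the sense strand in 1 of 27 exonic sites of the 9 genes and in 1.42% of all 16219 exonic sites widened by 10 nt, and the match is a description of the letters alone. IGF1R had 1 intronic cluster, from METTL1 replicate 2 in intron 2, which overlaps 14 of the 22 nt of hsa-miR-4714-5p.

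INSR, the insulin receptor, showed a different layout. It held 13 exonic clusters in 9 libraries, with 2 and 3 in IGF2BP1, 0 and 2 in IGF2BP2, 1 and 1 in IGF2BP3, 1 and 1 in bio2, 1 and 0 in METTL1 and 1 and 0 in WDR4. Its most shared site lay in coding sequence, in exon 6 of 22 exons, 1326 nt into the reading frame. That site was found in 7 of 8 reader libraries, all but IGF2BP2 replicate 1, and in 0 of 4 writer libraries, and it is single-copy.

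In the INSR 3′ UTR, 3 sites were found. The shared one, 3140 nt after the stop codon, held clusters of both IGF2BP1 libraries, IGF2BP2 replicate 2 and WDR4 replicate 1. A METTL1 replicate 1 site began at 3183 nt, on the base after that site ended. The WDR4 cluster lay within the stretch covered by IGF2BP1 replicate 1, so a writer shared this site, which was reproducible for IGF2BP1 and for no writer. The 4 intronic INSR sites, all in intron 2, were found in 1 library each, and the central sequence of those from WDR4 occurs 49 and 3361 times in the genome.

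IGF2R, the receptor that clears IGF2, had few clusters. Its 3 exonic clusters came from METTL1 replicate 2 and both WDR4 libraries and from no reader, at one site 3527 nt after the stop codon, or 0.467 clusters per kb of a 3′ UTR of 6420 nt. The site is 98.3% pyrimidine, and the central 20 nt of its clusters occur 8 times in the genome. The 2 intronic IGF2R sites are single-copy, one shared by IGF2BP1 replicate 2 and METTL1 replicate 1 and the other by METTL1 replicate 2 and WDR4 replicate 1.

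Among the docking proteins, IRS1, which couples both receptors to PI3-kinase, had 9 of its 13 clusters outside its annotated exons, in intron 1. Of these, 8 lay at 1 shared site, and the remaining cluster came from bio2 replicate 2 alone. The shared site was found in 8 libraries, 7 of them reader libraries (all but IGF2BP2 replicate 1) and the other WDR4 replicate 2. It begins 1890 nt after the end of exon 1, and since the stop codon lies only 21 nt before that end, the intron is one within the 3′ UTR. All 8 clusters of the shared site are single-copy. Reads from an unspliced RNA and from a transcript that runs past the annotated end of exon 1 cannot be told apart in these files.

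The IRS1 coding sequence held 4 clusters in 3 reader libraries and 0 in writer libraries. A site 845 nt into the reading frame was shared by IGF2BP1 replicate 2 and IGF2BP2 replicate 2, and bio2 replicate 1 alone held sites at 244 and 1572 nt. No coding site of IRS1 was reproducible for a protein. IRS2, the other docking protein, had 0 clusters of any kind, and GRB10, an adaptor known to dampen receptor signalling, had 1, an intronic METTL1 cluster whose central sequence occurs 742 times in the genome.

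PIK3R1, the regulatory subunit of PI3-kinase, held the site shared by the most proteins. It lies 3908 nt after the stop codon and 271 nt before the transcript end, and clusters of all 5 proteins were found there, from both IGF2BP1 libraries, IGF2BP2 replicate 2, IGF2BP3 replicates 1 and 2, METTL1 replicate 2 and both WDR4 libraries. It was the only one of the 43 sites reproducible for a reader (IGF2BP1 and IGF2BP3) and a writer (WDR4). That is 2.33% of them, against 4.13% of all sites, and the count fell to 0 without either WDR4 library. Neither bio2 library held the PIK3R1 site. All 8 clusters had the same bounds, with a width of 42 nt, and were single-copy. The other exonic PIK3R1 cluster, at 2017 nt, came from IGF2BP1 replicate 1 alone.

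IGFBP1, the secreted binding protein, was the densest of the 9 genes, with 17.6 clusters per kb in a 3′ UTR of 569 nt, and was found in reader libraries alone. The IGF2BP1 libraries had 2 and 2 exonic clusters, IGF2BP2 1 and 0, IGF2BP3 0 and 1, bio2 6 and 5, and METTL1 and WDR4 0 in each library. The bio2 libraries thus gave 11 of its 17 exonic clusters, at 15.6 and 14.3 per 10000 exonic clusters, against 0 to 4.07 in the other 6 reader libraries. A comparison of 2 libraries with 2 cannot give an exact p below 0.333, so the bio2 pair was not tested against the other IGF2BP3 libraries.

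The IGFBP1 site shared by most libraries, 107 nt after the stop codon, was found in both IGF2BP1 libraries, IGF2BP3 replicate 2 and both bio2 libraries, and holds CATACATA, a directly repeated element, as shown above. The bio2 libraries alone shared 3 others, in coding exon 2 (398 nt into the reading frame), 381 nt after the stop codon, and 539 nt after it, where the site ends 8 nt before the transcript end. Both IGF2BP1 libraries shared a coding site 223 nt into the frame. All IGFBP1 clusters were single-copy.

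FOXO3, the transcription factor at the far end of the pathway, had 0 exonic clusters. Its 4 intronic clusters were found in 1 library each, 3 from WDR4 replicate 2 and 1 from IGF2BP2 replicate 2.

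**Figure D2:**
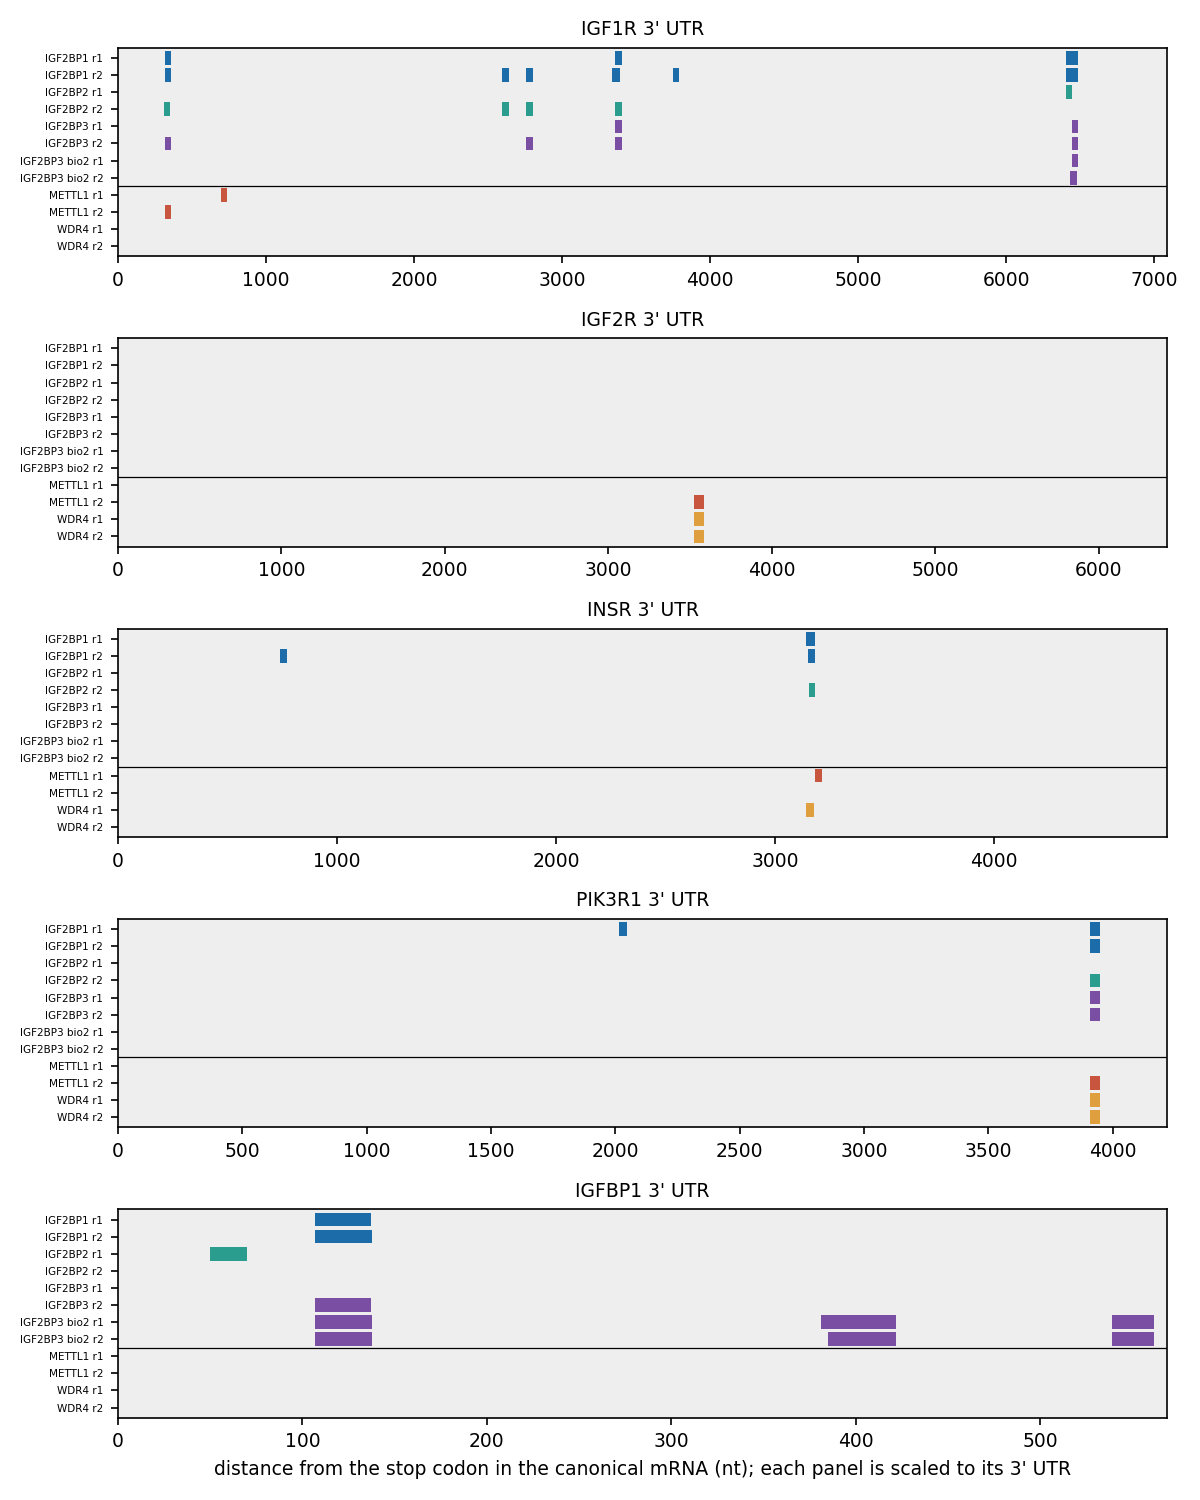
Clusters along the 3′ UTRs of IGF1R, IGF2R, INSR, PIK3R1 and IGFBP1 (x axis, distance from the stop codon of the canonical mRNA in nt, scaled separately) for each library (y axis), with readers above the black line and writers below and one colour per protein. Bars narrower than a small share of the panel are drawn wider to be visible. The shared PIK3R1 site at 3908 nt spans both sides of the line, the IGF2R site at 3527 nt lies below the line only and the IGFBP1 sites above it only.

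Set against all genes, 6 of the 9 had an exonic cluster in any library, where 29.4% of protein-coding genes did. Among all genes with an exonic cluster, 52.9% had a site reproducible for IGF2BP1, 46.8% for IGF2BP3, 19.7% for IGF2BP2, 11% for WDR4 and 9.77% for METTL1. Of the 6, 4 had such a site for IGF2BP1 (IGF1R, INSR, PIK3R1 and IGFBP1), the same 4 for IGF2BP3, 0 for IGF2BP2, 2 for WDR4 (IGF2R and PIK3R1) and 0 for METTL1. These 6 had an exonic cluster in a median of 7 libraries, against 4 for all genes with one, and IGF2R and IRS1, with 3 each, were below the latter. Their length and RNA level relative to other genes were not compared.

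Sharing between libraries was set beside that of other genes. Of the 27 exonic sites, 59.3% were found in at least 2 libraries and 44.4% were reproducible for a reader, against 56.1% and 46.5% of all exonic sites. Sites held by readers alone made up 77.8%, against 60.2% of all exonic sites, and sites held by both groups 11.1% against 20.7%. By cluster, 12 of 62 exonic reader clusters (19.4%) lay at a site with a writer cluster, against 38.4% over all genes, and 5 of 10 writer clusters (50%) lay at a reader site, against 65.5%. In introns the order was the other way for readers, with 8 of 14 reader clusters (57.1%) at a writer site against 31.5% over all genes, and 2 of 11 writer clusters (18.2%) at a reader site against 19.3%. The 8 include the 7 reader clusters of the shared IRS1 intron 1 site. These shares are descriptions with no test.

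**Figure D3:**
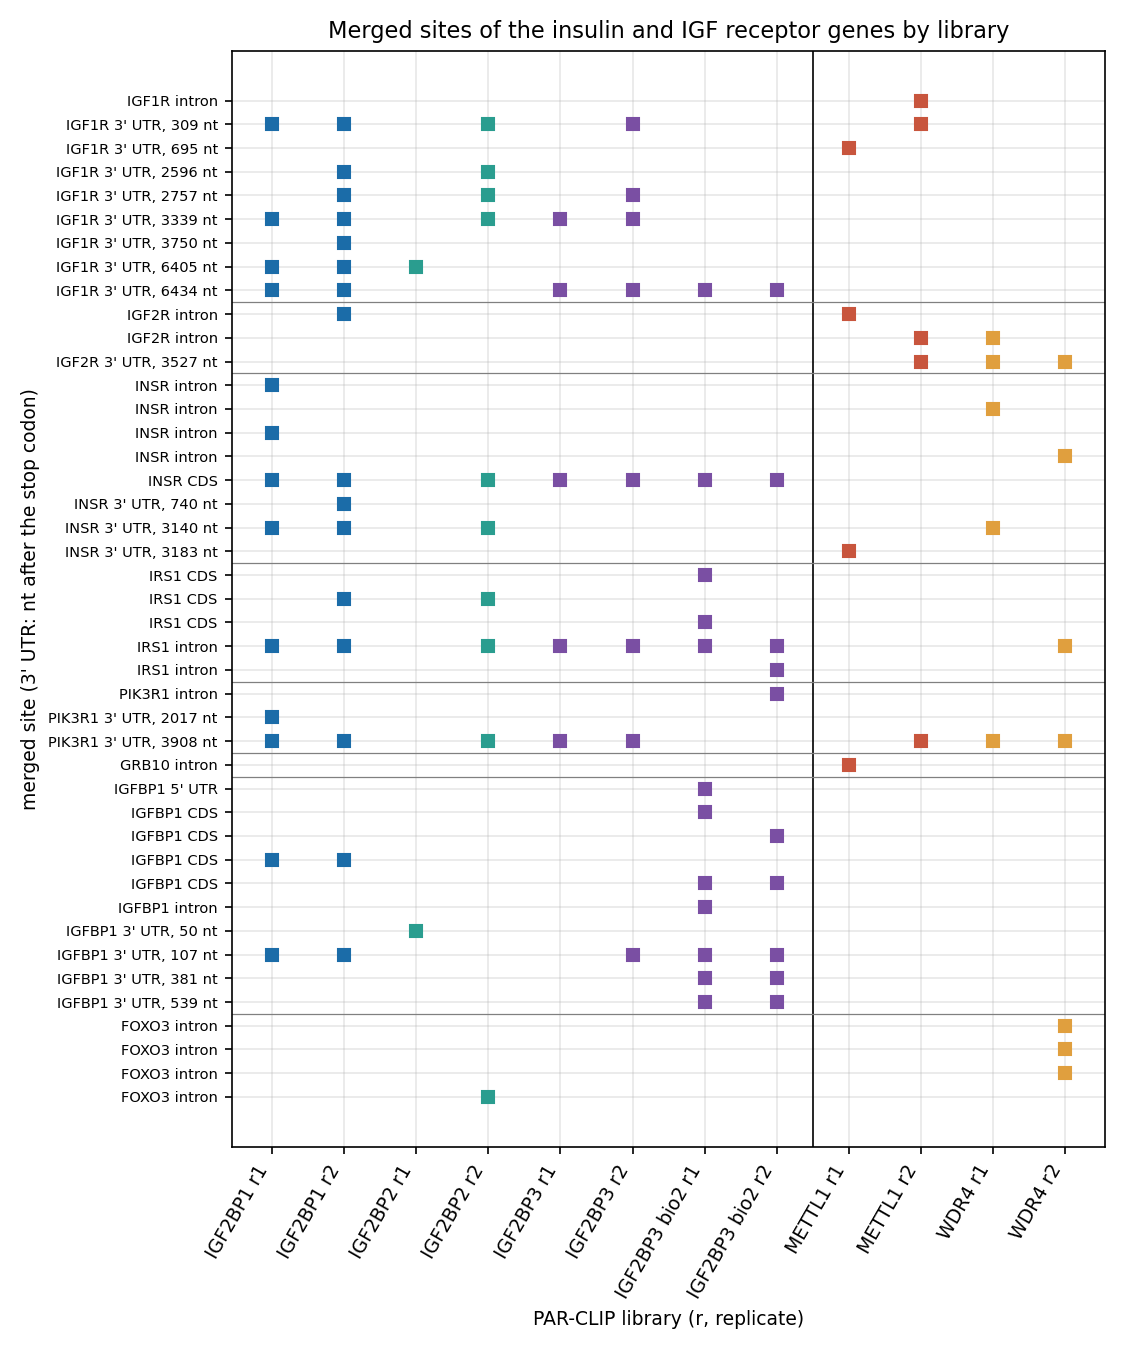
The 43 merged sites (y axis, with the distance after the stop codon for 3′ UTR sites) against the 12 libraries (x axis); a square is a library with a cluster at the site, coloured by protein, and the vertical line separates readers from writers. The shared IRS1 intronic site and the PIK3R1 distal site are found in 8 libraries each, and 24 sites in 1.

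The question of whether readers and writers differ in how much of their binding falls on these transcripts was tested over libraries. In the order used above, clusters in the 9 genes per 10000 clusters were 8.96 and 10.2 for IGF2BP1, 4.37 and 13.4 for IGF2BP2, 7.73 and 11.7 for IGF2BP3, 18.6 and 16.6 for bio2, 6.05 and 5.78 for METTL1, and 5.12 and 7.6 for WDR4. The means were 11.4 ± 4.68 (SD, n = 8) for readers and 6.14 ± 1.05 (n = 4) for writers, which are 5.31 apart and do not pass the two-sided exact permutation test (p = 0.0566, 495 arrangements, smallest possible p = 0.00202). All reader libraries but IGF2BP2 replicate 1 lay above all writers. Without that library, which held only 2 such clusters, the difference was 6.32 (exact permutation p = 0.0152). It had the lowest value of all libraries, so a larger difference followed from leaving it out. With any other single library left out, the exact permutation p was 0.0515 to 0.109. With single-copy clusters alone the difference was 8.94 (exact permutation p = 0.0222). Without the bio2 pair it was 3.25 (exact permutation p = 0.0952), without IGFBP1 2.13 (p = 0.242) and without IGF1R 2.9 (p = 0.303). These 2 genes were chosen for being left out after their values were seen, as those with the most reader clusters, so a smaller difference followed from the choice.

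A larger share of writer clusters is intronic in general, so exonic clusters were also set against exonic clusters. Readers averaged 16.6 ± 5.97 per 10000 (range 8.13 to 26.1, n = 8) and writers 10.3 ± 0.982 (9.29 to 11.2, n = 4), and the groups overlapped at IGF2BP2 replicate 1 and IGF2BP3 replicate 1, with 8.13 and 10.8. The difference of 6.33 did not pass (exact permutation p = 0.0808). It did without IGF2BP2 replicate 1 (7.54, exact permutation p = 0.0242) and without IGF2BP3 replicate 1 (7.16, p = 0.0485). These were the lowest readers, so a larger difference followed from leaving either out. It also passed with single-copy clusters (11.5, exact permutation p = 0.0121). That setting drops the IGF2R site, the IGF1R site at 309 nt and all but 72.7% of the exonic clusters of all genes, and the part of each was not tested. With clusters at or above the median width of their library it turned to -0.558 (exact permutation p = 0.939). With the same omissions it was 4.19 without bio2 (exact permutation p = 0.152), 1.17 without IGFBP1 (p = 0.693) and 2.34 without IGF1R (p = 0.566). The intronic densities, 11.9 ± 10.4 and 8.75 ± 3.82 per 10000 intronic clusters, differed by less than their spread (difference 3.14, exact permutation p = 0.64), and without the bio2 pair, whose values of 20.3 and 33.3 were the highest, the difference was -1.84 (p = 0.495).

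**Figure D4:**
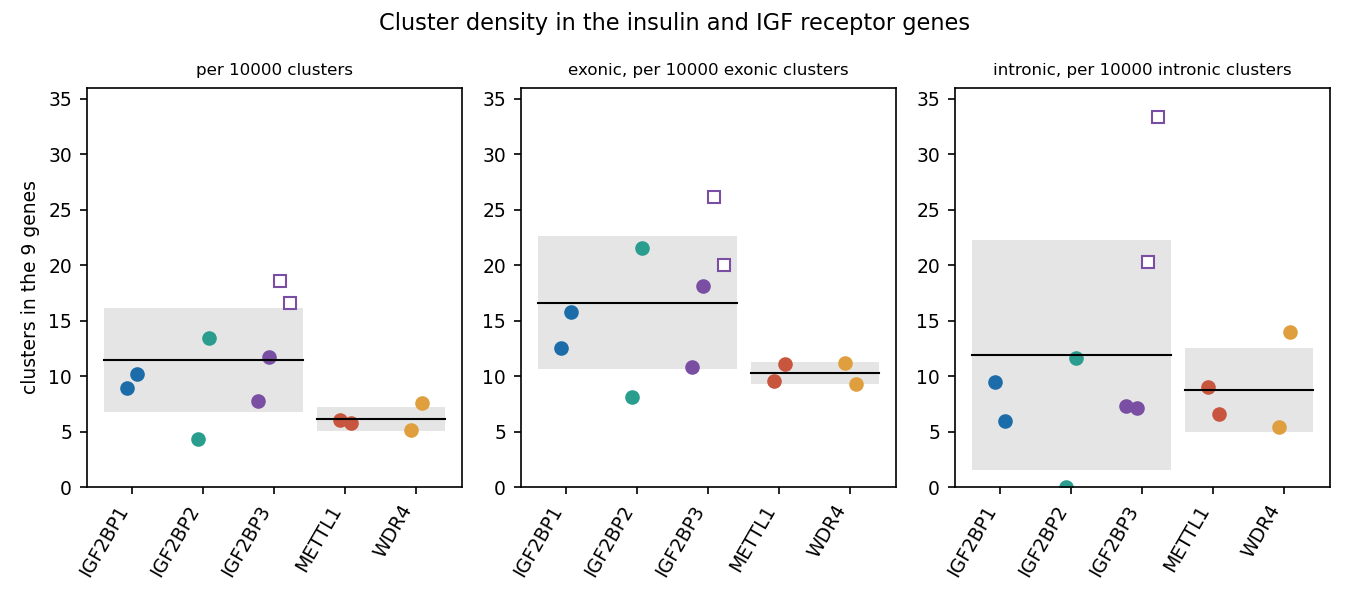
Clusters in the 9 genes per 10000 clusters of the library (y axis), for all clusters, exonic clusters and intronic clusters, by protein (x axis). Points are libraries (open squares, bio2), lines the means of 8 reader and 4 writer libraries, and grey bands 1 SD; the writers span 5.12 to 7.6 in the first panel and the readers 4.37 to 18.6.

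By gene, exonic clusters per 10000 exonic clusters were compared for all 3620 genes with an exonic cluster in at least 3 libraries. Of these, 0% were called higher in readers and 0% lower after Benjamini-Hochberg adjustment of the exact permutation p, while 766 had an unadjusted p under 0.05. The smallest adjusted p was 0.0677, and 108 genes were at the smallest p that 12 libraries allow. Of the 9 genes, 6 were tested and 0 called. IGF2R averaged 0 in readers and 3.02 ± 2.06 in writers (difference -3.02, exact permutation p = 0.0182, adjusted p = 0.165). It met the limit of 3 libraries through writers alone, the group where it is high, so this p lends no support to a difference. IGF2R drops below that limit when only single-copy clusters are used.

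The IGF1R difference had the opposite sign, with 6.12 ± 3.19 in readers and 2.12 ± 2.49 in writers, although the METTL1 values of 4.79 and 3.69 lay within the reader range (difference 4.0, exact permutation p = 0.0545, adjusted p = 0.246). IGFBP1 averaged 5.17 ± 6.21 and 0, PIK3R1 1.45 ± 1.3 and 3.02 ± 2.06, INSR 2.75 ± 1.46 and 2.13 ± 2.5, and IRS1 1.13 ± 1.91 and 0, with adjusted p from 0.333 to 0.745 by the same exact test. Both IGFBP1 and IRS1 met the limit on libraries through readers alone. Whether the pattern of IGF2R differs from that of IGF1R was not tested.

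The share of the 97 clusters in 3′ UTRs was 62.3% ± 20.6 in reader and 49.6% ± 14.8 in writer libraries (difference 12.7 percentage points, exact permutation p = 0.309). Over the clusters within all protein-coding genes the same share was 45.8% to 56.4% in readers and 26.5% to 29.2% in writers. The lowest reader values, 33.3% (95% Wilson interval 13.8% to 60.9%) and 40% (16.8% to 68.7%), were those of bio2, with 8 of the 17 coding clusters. Without bio2 the difference was 21.2 (exact permutation p = 0.0524), while it was 5.66 without WDR4 replicate 2 (p = 0.697), 7.3 without IGF2BP2 replicate 1 (p = 0.464) and 2.87 with clusters at or above the median width of their library (p = 0.867). With 2 to 16 clusters per library these intervals, which cover counting error only, are wide.

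CAUH was present in 20 of the 27 exonic sites widened by 10 nt on both sides (74.1%), against 55.5% of all exonic sites, and GGAC, a core of m6A motifs, in 18.5% against 13.6%. Without widening, CAUH was in 59.3% against 49% and GGAC in 14.8% against 7.12%. The IGF1R sites at 3339, 6405 and 6434 nt and the adjacent pair of INSR 3′ UTR sites were among those without CAUH, while the PIK3R1 distal site and 3 of the 4 IGFBP1 3′ UTR sites held it even without widening. By library, CAUH was in 58.9% ± 10.2 of exonic reader clusters (n = 8) and 79.2% ± 25 of exonic writer clusters (n = 4), a difference of -20.3 percentage points (exact permutation p = 0.0626). Writers had only 2 or 3 such clusters per library. The IGF2R 3′ UTR site and the PIK3R1 distal site, both with CAUH, were each counted again in 3 writer libraries. The share over all exonic clusters of each library was not set beside these values. The difference was -30 without METTL1 replicate 1 (exact permutation p = 0.0121), -23.3 without bio2 replicate 1 (p = 0.0394), and -20.3 with labels permuted within replicate number (p = 0.04). METTL1 replicate 1 held the lowest writer share and bio2 replicate 1 the highest reader share, so leaving either out widens the difference. The difference was smaller, at -13.3, without METTL1 replicate 2 or without WDR4 replicate 2 (exact permutation p = 0.23 for each), -10.2 with CAU as the motif (p = 0.352) and -3.65 with clusters at or above the median width of their library (p = 1). In composition the exonic sites were like others, with a median of 64.5% pyrimidine in both sets and a median width of 39 against 35 nt.

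Along the 3′ UTR, the 18 sites lay between 4.36% and 94.7% of its length, with a median of 50.4%, so no one end held them all. The central 20 nt was single-copy in 64 of 72 exonic clusters (88.9%, against 72.7% over all genes), the exceptions being the IGF1R site at 309 nt and the IGF2R site, and in 20 of 25 intronic clusters (80%, against 52.9%).

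Of 57 further genes of the pathway, 35 had an exonic cluster and 22 had 0, where 29.4% of all protein-coding genes had one. Among them 25 were tested and 0 called in either direction. Of the 35, a site was reproducible for IGF2BP1 in 24 (52.9% of all genes with an exonic cluster), for IGF2BP3 in 20 (46.8%), for IGF2BP2 in 11 (19.7%), for METTL1 in 4 (9.77%) and for WDR4 in 3 (11%). The 6 with sites reproducible for the most proteins were IGF2, the ligand, with 382 exonic clusters in 12 libraries, PHLPP2, an AKT phosphatase, with 13 in 10, GRB2, an adaptor that leads to RAS, with 14 in 12, IGFBP4, an IGF-binding protein, with 18 in 11, PTPN1, a phosphatase of the insulin receptor, with 15 in 9, and SHC1, another adaptor, with 8 in 8. IGF2 and PHLPP2 were reproducible for all 5 proteins, which no gene among the 9 was. The ligand therefore had more exonic clusters (382) than all 9 receptor-pathway genes together (72).

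Over the 12 libraries, which share depth and protein, the exonic cluster density of IGF1R was most like those of PLXNA1 (Pearson r = 0.792), SMAD5 (0.763) and PCGF5 (0.76), and that of IGFBP1 most like those of MAN1A1 (0.965), APOB (0.945) and SKIL (0.934), among genes with an exonic cluster in at least 8 libraries. These are descriptions of likeness, ranked over 1278 and 1279 genes. The IGFBP1 density was 15.6 and 14.3 in the bio2 libraries and at most 4.07 in any other, so its correlations give that pair much weight.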

How the data were processed

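The deposited files are lists of intervals, a unit other than counts or signal, in which the authors gave the start, end and strand of every cluster called in a library, with no score. Reads had been filtered, clipped and collapsed (FASTX toolkit), mapped (bowtie) and clustered (PARalyzer), as the methods state. The mapping kept reads with several best places in the genome and dropped those above a set limit of places. The labels name hg38, and PARalyzer settings are not given in the sources used here. Starts were read as counted from 1, since G preceded 74.5% to 94.7% of clusters, by library.

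Clusters were classed by midpoint against GENCODE release 44 (coding sequence first, then 3' UTR, 5' UTR, remaining exons and introns) and merged across libraries where same-strand intervals overlapped by 1 nt or more. Copy number is the count of the central 20 nt over chromosomes 1 to 22, X, Y and M of hg38. Differences in means between groups of libraries were tested by exact two-sided permutation with a threshold of 0.05, and genes with Benjamini-Hochberg adjustment over all 3620 tested. The library's number of clusters, 4581 to 15701, sets the precision. For each gene the site found in most libraries was described, with every site reproducible for a reader and a writer. Of the further pathway genes, up to 6 with sites reproducible for the most proteins were named. The members and lists were chosen with earlier results of these data known.

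Replicate numbers were not taken as pairs, since 15 correlations of deviations between same-numbered libraries, over 3620 genes, lay between -0.0715 and 0.055. Alternatives left out libraries, used the protein as the unit, kept permutations within a replicate number, or changed the clusters, the annotation, the overlap, the motif or the denominator. Leaving out IGF1R or IGFBP1 and using chromosomes 1 to 22, X, Y and M alone were added after the data were seen. Scripts in Python 3.11.15 (numpy 2.4.6, pandas 2.3.3, pysam 0.24.0) were tested on simulated data. No other assay of the study was used here.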

Additional observations from a re-analysis of the deposited data

Results flagged for a closer look

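The exonic cluster density of IRS1, the docking protein, in the 4 IGF2BP3 libraries stood out among 29 groups of values examined. The highest library, bio2 replicate 1, had 5.22 IRS1 exonic clusters per 10000 exonic clusters, from 2 coding clusters, and the other 3 libraries had 0. It was picked out because a single sample lay far from the others, which chance alone does in about 1 of 20 groups. That rate need not hold here, where 3 of the 4 values are 0 and the other rests on 2 clusters.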

How the results depend on the processing

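Of 22 alternatives for the density of clusters in the 9 genes, none changed its direction and 20 kept it short of the threshold. Leaving out 1 library gave differences of 4.29 to 6.32 for all clusters, 4.98 to 7.54 for exonic clusters and -30 to -13.3 percentage points for the CAUH share, and 15 to 19 sites found in at least 2 libraries (19 with all libraries). With single-copy clusters alone the differences were 8.94 for all and 11.5 for exonic clusters, both past the threshold. With clusters at or above the median width of their library, the exonic difference reversed to -0.558, that of INSR to -0.0786, and the sites in at least 2 libraries fell to 10, fewer clusters being used. The intronic difference reversed to -1.84 without the bio2 libraries, and the INSR difference to -0.0867 without METTL1 replicate 2 or without WDR4 replicate 2, with a range of -0.0867 to 1.51 when single libraries were left out. The count of sites reproducible for a reader and a writer was 1, or 0 without either WDR4 library, since reproducibility needs 2 libraries. No gene was called in the per-gene test under any of its 20 alternatives. With 3620 genes and a smallest possible p of 0.00202, a call needs many genes at or near that p. Leaving out libraries raises the smallest possible p further. The count of 0 is thus limited by the test and is not evidence that no gene differs.

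With the replicate number as a block, the CAUH difference of -20.3 had an exact permutation p of 0.04. The block changed no other call, as with the density of all clusters (5.31, exact permutation p = 0.0578). With the protein as the unit, the smallest possible p is 0.1, so no result could pass. The causes of these changes were not tested. The absence of read counts limits all values, since a cluster counts the same whatever its depth, and no upper limit on binding follows from a missing one.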
